A study of Mus musculus with 6 samples.

Results

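The genes described here are 9 receptors through which blood-forming cells sense growth factors: Csf1r, Csf2ra, Csf2rb, Csf2rb2, Csf3r, Il3ra, Il6ra, Il6st and Epor. Probe sets were taken where the platform annotation gave exactly 1 gene symbol and that symbol was one of these names, which yielded 17 of the 45037 probe sets that are not controls. The 9 genes stand among 18193 genes with such a probe set. For each gene the probe set with the highest mean signal over all arrays is called the main one. LSK cells, the fraction of mouse bone marrow that lacks lineage markers and carries Sca-1 and c-Kit, were sorted from F1 hybrids of C57BL/6 and FVB/n and measured on 6 Affymetrix Mouse Genome 430 2.0 arrays. The 3 Ercc1-deficient arrays came from mice with the genotype -/d, 1 knockout allele and 1 truncated allele of Ercc1, a DNA repair endonuclease subunit. The 3 Ercc1-proficient arrays are from mice with a normal allele, +/+ in litters 1 and 2 and +/d in litter 3. The labels say that litter mates were compared and number the samples, and samples of equal number are called a litter here, although no label states that a number is a litter. The mice of litter 1 were aged 22 weeks and those of litters 2 and 3 were aged 20 weeks. No treatment is named, and no label says whether a sample pools several mice, so each SD below measures the spread between these samples. Standard errors and intervals below come from limma. With only 2 residual degrees of freedom for each probe set, limma also borrows variance from the other probe sets.

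The receptors fall into families that work in different ways. CSF1R is a receptor tyrosine kinase for M-CSF and directs cells towards monocytes and macrophages. The others lack a kinase of their own and signal through bound JAK kinases, which phosphorylate STAT proteins. The ligand-binding alpha chains of the GM-CSF receptor (CSF2RA) and of the IL-3 receptor (IL3RA) pair with the common beta chain CSF2RB, and mice also have CSF2RB2, a beta chain that serves IL-3 alone. The G-CSF receptor CSF3R, which drives granulocyte formation, and the erythropoietin receptor EPOR act as pairs of the same chain. IL6RA binds IL-6 and joins IL6ST, also called gp130, the signalling chain shared by the whole IL-6 family. In early progenitors many of these receptors are present at low levels before cells commit to a lineage.

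The promoters of Csf3r, Csf2ra and Epor are shown because PU.1, C/EBP, RUNX and GATA factors, known to act on receptor genes, were measured on the same arrays. They are the 250 bases before the RefSeq start site in build GRCm38.p6, written along the gene's strand, at chr4:126024409-126024658 on the plus strand for Csf3r, chr19:61228419-61228668 on the minus strand for Csf2ra and chr9:21963577-21963826 on the minus strand for Epor. Capitals mark matches on either strand. The core searched for PU.1 and other ETS factors was GAGGAA. The core searched for RUNX factors was TGTGGT. The core searched for GATA factors was AGATAA. The core searched for C/EBP factors was TTGCNNAA.
Csf3r: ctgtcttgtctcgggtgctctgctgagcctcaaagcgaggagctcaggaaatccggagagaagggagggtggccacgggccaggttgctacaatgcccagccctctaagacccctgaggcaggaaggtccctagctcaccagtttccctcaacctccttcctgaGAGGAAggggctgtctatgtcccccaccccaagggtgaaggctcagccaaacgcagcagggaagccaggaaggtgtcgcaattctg
Csf2ra: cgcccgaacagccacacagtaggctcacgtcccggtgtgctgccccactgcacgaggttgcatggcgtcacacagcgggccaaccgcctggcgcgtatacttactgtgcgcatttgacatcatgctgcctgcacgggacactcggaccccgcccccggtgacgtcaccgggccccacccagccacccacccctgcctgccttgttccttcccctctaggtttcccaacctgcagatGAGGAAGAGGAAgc
Epor: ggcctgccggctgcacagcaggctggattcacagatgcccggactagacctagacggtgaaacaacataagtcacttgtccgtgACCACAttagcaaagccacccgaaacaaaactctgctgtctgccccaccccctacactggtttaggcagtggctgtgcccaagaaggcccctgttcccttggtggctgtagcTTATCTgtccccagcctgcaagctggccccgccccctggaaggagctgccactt
Csf3r held 1 PU.1 core, which began 86 bases before the start, and Csf2ra held 2 that abutted each other and began 14 and 8 bases before it. Epor held 1 GATA core 54 bases and 1 RUNX core 166 bases before its start, both on the opposite strand. RefSeq promoters matched 7 of the 9 receptors, all but Csf1r and Csf2rb. Of these 7, 4 held a PU.1 core, 1 a RUNX core, 2 a GATA core and 1 a C/EBP core. Among all 32851 promoters of the same length the shares were 23.3%, 14%, 9.99% and 9.56%, and a match is a description of letters, not a bound site.

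Across the series, signals had a floor of 30, at which between 52.3% and 58.6% of probe sets lay on each array. Litter mates resembled each other, with correlations of 0.77, 0.67 and 0.46 between their deviations from the group means in litters 1, 2 and 3. The main Ercc1 probe set measured 79.9, 34.5 and 44.9 in deficient and 128, 244 and 176 in proficient arrays of litters 1, 2 and 3. It was lower in the deficient array of every litter, but its place relative to the disrupted part was not checked. Of the genes behind the gate, Kit, which encodes c-Kit, measured 125, 95.8 and 92.2 in deficient and 231, 123 and 151 in proficient arrays of litters 1, 2 and 3, lower in each deficient array (log2 difference -0.53, 95% interval -1.02 to -0.04, limma adjusted p = 0.380). Its part in the lower values of other genes below was not tested. Ly6a, which encodes Sca-1, is not analysed here. Among 5 measured markers of the depleted lineages, Cd4 and Itgam were at the floor on all 6 arrays. Cd3e read 90.5 in deficient litter 1 and at most 31.3 elsewhere, and Cd8a read 98.4 in deficient litter 2 and 30 elsewhere. Ms4a1 read between 30 and 56.2, highest in deficient litter 2. In the plot of signals by array each receptor is shown beside its litter mate.

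**Figure D1:**
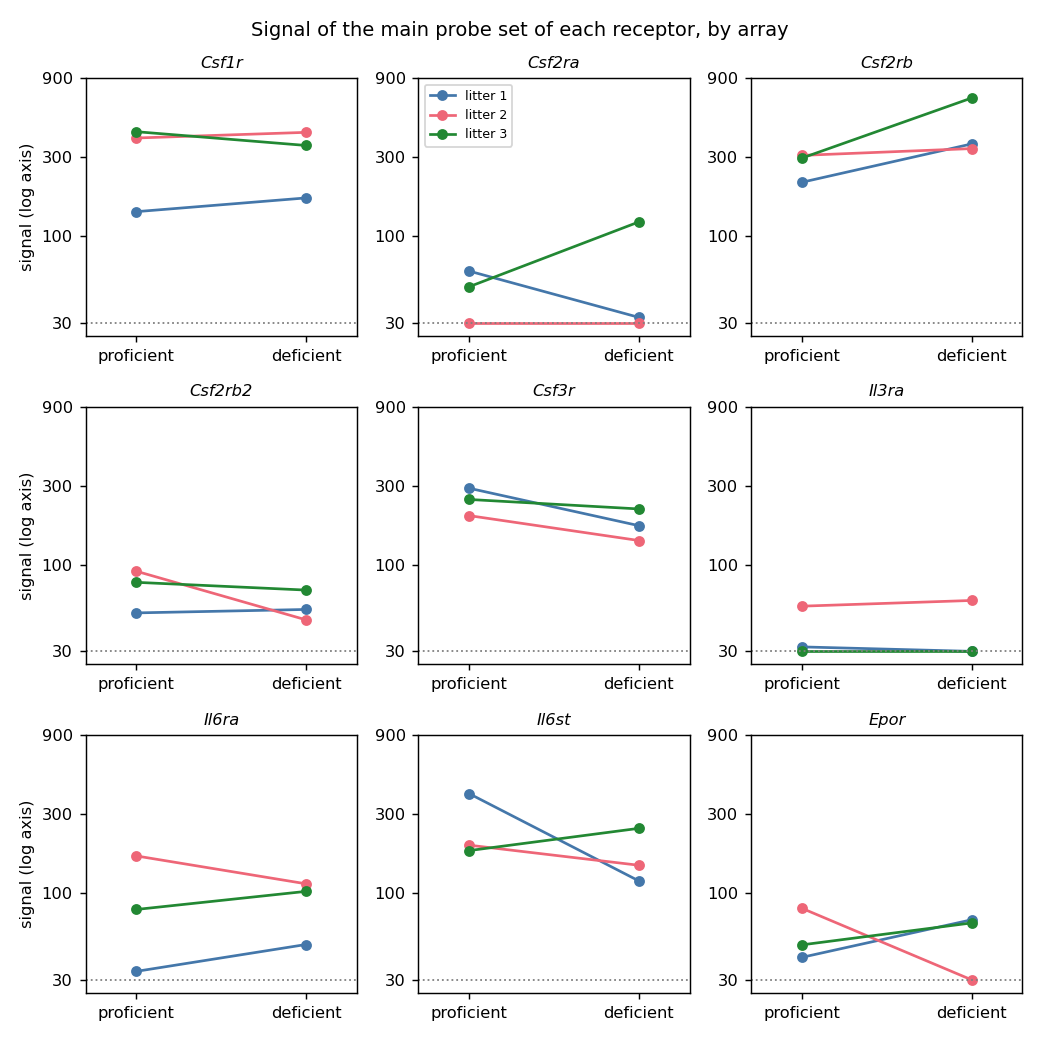
Signal of the main probe set of each receptor (log axis) in proficient and deficient arrays, with a line joining the litter mates of litters 1, 2 and 3 and a dotted line at the floor of 30. Csf2rb is the one receptor whose 3 deficient values, from 339 to 685, all lie above the 3 proficient values, from 212 to 309; the lines of Csf3r all go down, and those of Il6st and Epor cross.

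No receptor passed the test. Csf2rb was higher and Csf3r lower in the deficient array of every litter. The interval of Csf2rb lay above 0 before adjustment, but it was -0.18 to 1.47 when no filter on mean signal was used. Differences are given as deficient minus proficient on the log2(signal + 30) scale, which understates changes of weak genes, with litter as a block. Of the 17 probe sets, 14 passed the filter on mean signal and were tested, and limma called 0 of these 14 at an adjusted p under 0.05, against 0.835% of all 22519 tested. At an unadjusted p under 0.05 there were 2 of 14, for Csf2rb and Csf2ra, against 11.5% of all. With no litter term, and likewise with no filter, that count was 0. The 188 probe sets called in all were 71 higher and 117 lower in deficient cells, a split that became 193 and 139 when arrays were centred on their medians, and without the filter the total was 0. The 9 main probe sets had a median log2 difference of 0.01, with 5 above and 4 below 0, beside a median of -0.02 over the 10885 main probe sets tested. Because LSK cells are a mixture, fewer cells of a type and less RNA per cell cannot be told apart in these values.

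Only 1 of the 14 tested probe sets, that of Csf2rb, had all deficient arrays above all proficient ones, where 2.30% of all tested probe sets did, and 0 had all of them below, where 4.89% did. In 2 of 14 every deficient array exceeded its litter mate, namely the main Csf2rb probe set and the second one of Csf2ra, against 11.3% of all tested. In 2 of 14 every deficient array was below its litter mate, namely the Csf3r probe set and the second one of Il6st, against 17.0% of all tested. The receptor counts are too small to set apart from these shares.

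**Figure D2:**
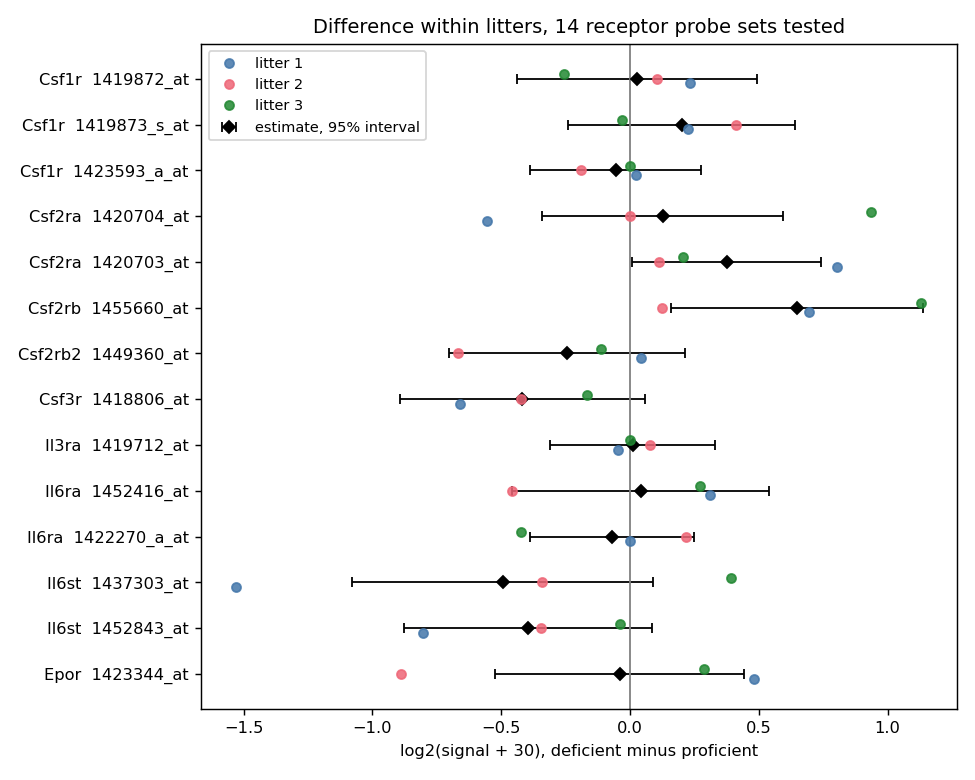
Log2 difference (log2(signal + 30), deficient minus proficient) of the 14 receptor probe sets tested, with coloured points for litters 1, 2 and 3 and black diamonds with bars for the limma estimate and its 95% interval. The intervals of 2 probe sets, Csf2rb 1455660_at (0.16 to 1.14) and Csf2ra 1420703_at (0.01 to 0.74), lie above 0 before adjustment for multiple tests, and the litters disagree in direction for most others. With no filter these 2 intervals include 0 (-0.18 to 1.47 and -0.32 to 1.07).

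Csf2rb, the common beta chain, had the highest estimate among the main probe sets. Its main probe set, 1455660_at, measured 362, 339 and 685 in deficient and 212, 309 and 297 in proficient arrays of litters 1, 2 and 3. All 3 deficient values were above all 3 proficient ones, although the deficient array of litter 2 exceeded its litter mate by only 1.10-fold, while litters 1 and 3 had ratios of 1.70 and 2.31. The means were 462 ± 194 and 273 ± 52.6 (SD, n = 3 each), and the log2 difference of 0.65 (standard error 0.24, 95% interval 0.16 to 1.14) had an adjusted p of 0.268 in limma. A second Csf2rb probe set, 1421326_at, was at the floor on all 6 arrays, so the result rests on 1 probe set, and the mean over both gave a log2 difference of 0.32.

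Summed granulocyte markers, like Csf2rb, read more in each deficient array than in its litter mate, though not in the same order of size as Csf2rb: in litter 2, where Csf2rb differed least, they went from 6080 to 33070. Of 14 listed genes of mature granulocytes 11 were measured, and their summed signal ranged from 5730 to 81393 in deficient and from 588 to 18364 in proficient arrays, so the groups overlapped. In deficient arrays the sum was mostly S100a8 and S100a9, at 20987 and 10039 in litter 2 and 25656 and 29205 in litter 3. Ltf and Lcn2 read 2477 and 3055 in deficient litter 3 and at most 123 and 91.4 elsewhere. Limma called 4 of the 8 tested as higher with litter as a block, Camp, S100a8, S100a9 and Ngp, all of them granule or calprotectin genes, where 0.514% of all main probe sets were called higher. The defining markers Cxcr2, Itgam and Mmp8 were at the floor on all 6 arrays. Markers of granulocyte-monocyte progenitors summed to between 14539 and 41291 in deficient and between 3754 and 20247 in proficient arrays, and 5 of 7 were called higher. Of 7 tested monocyte and macrophage markers, 2 were called higher, Ccr2 and F13a1; their 11 measured genes summed to between 895 and 2400 against 570 to 1390, and C1qa, Ms4a7 and Siglec1 were at the floor on all arrays. These marker genes were chosen after their values were seen, most of them by their calls or their place at the floor. Spike-in controls, added apart from the cells' RNA, likewise read more in each deficient array, by 1.19, 0.12 and 0.18 on the log2 scale, as was 18S ribosomal RNA, by 0.05, 0.88 and 0.64. The part of these in the Csf2rb values was not tested.

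**Figure D3:**
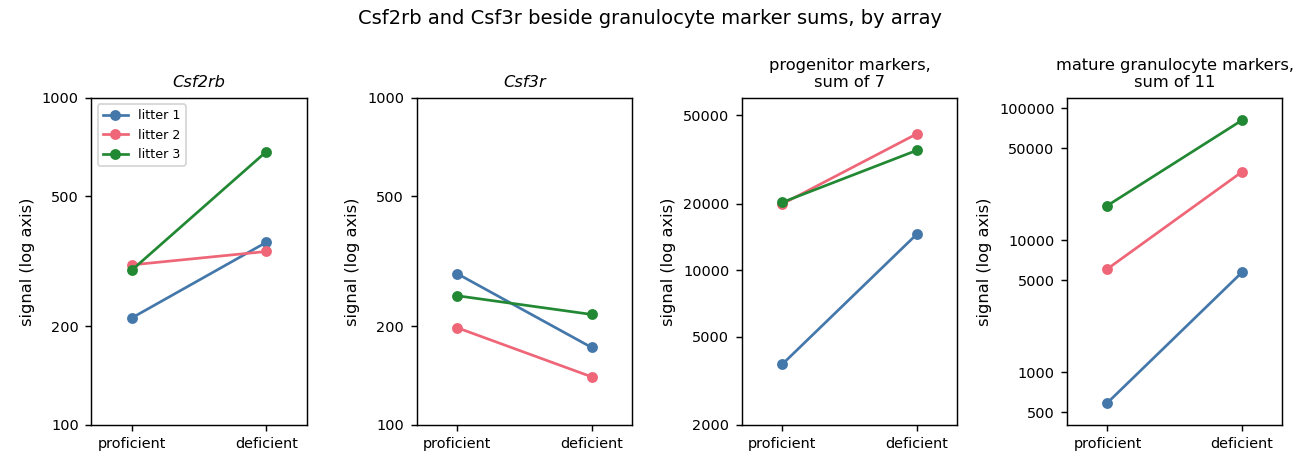
Signals (log axes, a different range for each marker sum) of the main Csf2rb and Csf3r probe sets, the sum of 7 measured progenitor markers and the sum of 11 measured mature granulocyte markers, in proficient and deficient arrays joined by litter. The marker sums and Csf2rb go up in each litter, with mature markers going from between 588 and 18364 to between 5730 and 81393, while Csf3r goes from between 198 and 290 to between 140 and 218.

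Csf2rb2, the IL-3-specific beta chain, did not follow Csf2rb. It lies next to Csf2rb, with only 1 gene start, that of a microRNA, between them in RefSeq. Its 1 probe set measured 53.7, 46.5 and 70.4 in deficient and 51.2, 91.4 and 78.4 in proficient arrays of litters 1, 2 and 3. The groups overlapped, and the deficient array was about level with its litter mate in litter 1 and lower in litter 2, at 0.508 of its signal. The log2 difference was -0.24 (95% interval -0.70 to 0.21, adjusted p = 0.721 in limma). The difference between the responses of these neighbouring genes was not tested. A probe set annotated to both genes, which is not a member by the rule, read 30 on all 6 arrays.

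The alpha chains were weakly measured. Csf2ra, the GM-CSF binding chain, had 2 probe sets that did not follow each other. The main one, 1420704_at, measured 32.4, 30 and 122 in deficient and 61.7, 30 and 49.6 in proficient arrays of litters 1, 2 and 3, so litter 1 was lower, litter 2 was at the floor on both sides and litter 3 was higher in deficient cells. Its log2 difference of 0.13 (95% interval -0.34 to 0.59, limma adjusted p = 0.862) turned to -0.28 without litter 3. The second, 1420703_at, measured 74.7, 46.9 and 39.3 in deficient and 30, 41.0 and 30 in proficient arrays. It was higher in the deficient array of each litter, by at least 2.49-fold, by 1.14-fold and by at least 1.31-fold, the bounds coming from proficient arrays at the floor. That log2 difference was 0.38 (95% interval 0.01 to 0.74) with an adjusted p of 0.424 in limma. In litter 1 the 2 probe sets of this gene thus went opposite ways.

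Il3ra, the IL-3 binding chain, was at or near the floor in litters 1 and 3. It measured 30, 60.9 and 30 in deficient and 31.9, 56.2 and 30 in proficient arrays, and only litter 2 was clearly above the floor, at like levels in both genotypes. The log2 difference was 0.01 (95% interval -0.31 to 0.33, limma adjusted p = 0.984). Values at the floor hide any difference below it.

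Csf3r, the G-CSF receptor, was lower in deficient cells of each litter while the granulocyte markers were higher. Its 1 probe set measured 172, 140 and 218 in deficient and 290, 198 and 248 in proficient arrays of litters 1, 2 and 3. The deficient-over-proficient ratio was 0.594, 0.707 and 0.876, and the groups overlapped because the deficient value of litter 3 exceeded the proficient value of litter 2. The means were 177 ± 38.9 and 246 ± 46.0 (SD, n = 3 each), with a log2 difference of -0.42 (standard error 0.23, 95% interval -0.89 to 0.06, limma adjusted p = 0.512).

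Csf1r, the M-CSF receptor, varied more between litters than between genotypes. The main probe set, 1419872_at, measured 171, 425 and 354 in deficient and 141, 393 and 429 in proficient arrays. Both arrays of litter 1, the older litter, were below the other 4 arrays, and within litters the ratios were 1.21, 1.08 and 0.826. The log2 difference was 0.03 (95% interval -0.44 to 0.49, limma adjusted p = 0.972), and it turned to -0.08 without litter 1 and to -0.01 without litter 2. A second probe set, 1419873_s_at, showed the same weakness of litter 1, with 40.1 and 30 there against 61.0 to 90.9 elsewhere, and a log2 difference of 0.20 (95% interval -0.24 to 0.64). The third, 1423593_a_at, did not share that pattern, since it was at the floor on both arrays of litter 3 and between 42.3 and 54.0 on the others. Age, litter and array processing cannot be told apart in such a litter difference.

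Il6st, the shared gp130 chain, was lower in deficient cells of litters 1 and 2 only by its main probe set. That probe set, 1437303_at, measured 119, 148 and 247 in deficient and 400, 195 and 181 in proficient arrays of litters 1, 2 and 3. The proficient array was 3.37-fold higher in litter 1 and 1.32-fold higher in litter 2, whereas in litter 3 the deficient array was 1.36-fold higher. The log2 difference was -0.49 (95% interval -1.08 to 0.09, limma adjusted p = 0.532) and rested on litter 1, without which it was 0.02. With no filter that interval was wider, -2.07 to 1.08. Signs of RNA quality also differed within litter 1, where the deficient array was above its litter mate, while those of litters 2 and 3 were below theirs. The log2 signal of the 3′ minus the 5′ Actb control was 4.97 in deficient and 4.05 in proficient litter 1. It was 4.27 and 4.43 in litter 2 and 3.30 and 3.70 in litter 3. For Gapdh it was 4.71 and 3.64, against 2.43 and 2.99 and against 2.30 and 2.73. Their part in the values of Il6st, and of other genes that differed most in litter 1, such as Csf3r and Il7r, was not tested. A second probe set, 1452843_at, measured 83.7, 44.4 and 57.5 in deficient and 168, 64.6 and 60.0 in proficient arrays. It was lower in the deficient array of each litter, again most in litter 1, where the ratio was 0.497, and nearly level in litter 3 at 0.959. Its log2 difference was -0.40 (95% interval -0.88 to 0.08, limma adjusted p = 0.548). Of the remaining 2 Il6st probe sets, 1460295_s_at stayed at 30 on all 6 arrays, and 1421239_at on all but the deficient array of litter 2, which read 33.4; neither passed the filter.

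Il6ra, the IL-6 binding chain, did not differ in one direction. Its main probe set, 1452416_at, measured 49.0, 114 and 103 in deficient and 33.7, 168 and 79.8 in proficient arrays, higher in the deficient array of litters 1 and 3 and lower in that of litter 2. The log2 difference was 0.04 (95% interval -0.46 to 0.54, limma adjusted p = 0.959), and it was -0.09 without litter 1 and -0.07 without litter 3. As with Csf1r, both arrays of litter 1 were the weakest. The second probe set, 1422270_a_at, was at the floor on 4 arrays and read 39.7 and 50.5 on the others, in deficient litter 2 and proficient litter 3.

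Epor, the erythropoietin receptor, showed no common direction. It measured 69.2, 30 and 66.2 in deficient and 41.0, 81.1 and 48.8 in proficient arrays of litters 1, 2 and 3. The deficient array was higher in litters 1 and 3, at ratios of 1.69 and 1.36, and at the floor in litter 2, where the proficient array was at least 2.70-fold higher. The log2 difference of -0.04 (95% interval -0.52 to 0.44, limma adjusted p = 0.959) became 0.01 with quantile normalization, 0.05 with median centring and 0.38 without litter 2. Erythroid markers such as Klf1 also differed by litter: Klf1 read 114, 513 and 218 in deficient and 43.9, 744 and 422 in proficient arrays, and did not pass (limma adjusted p = 0.882).

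The genes around the receptors were examined in 6 lists, by the main probe set of each gene. Of all 10885 main probe sets tested, 5791 had negative and 5094 positive differences. Array medians were lower in the deficient array of each litter, and centring arrays on them raised each log2 difference by 0.09. The lists held 2 tested ligands, 15 other receptors, 23 JAK, STAT and adaptor genes, 18 inhibitors, 15 targets and 13 transcription factors. Osm stood in both the ligands and the targets. Among all these genes 1 passed with litter as a block, while 56 higher and 65 lower were called among the 10885 main probe sets. The gene that passed was Flt3, the receptor of FLT3 ligand on early multipotent and lymphoid progenitors. Flt3 measured 90.5, 105 and 105 in deficient and 310, 221 and 197 in proficient arrays, with no overlap, and a log2 difference of -1.05 (standard error 0.24, limma adjusted p = 0.0349), where 0.597% of all main probe sets were called lower. Its call was lost with no litter term (adjusted p = 0.9998), quantile normalization (0.094), no filter (0.942), no variance trend (0.0565) and without litter 1 (0.718), 2 (0.687) or 3 (0.581). Of the 15 other receptors tested, 11 had negative and 4 positive differences, with a median of -0.21. The next by p were Il7r, the IL-7 receptor chain of lymphoid progenitors, at 50.3, 62.3 and 81.5 against 203, 75.3 and 105, and Il1r1, an IL-1 receptor, at 87.8, 30 and 80.5 against 294, 98.3 and 50.5. Il7r was lower in the deficient array of each litter, mostly in litter 1, while Il1r1 was lower in litters 1 and 2. Among the receptors with negative differences, Il10ra had its sign set by the filter, which it passed only through its proficient arrays.

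Most ligand genes had signals at the floor, which hides any level below it. Of 11 ligand genes measured, 6 were at the floor on all arrays, among them Csf2, Csf3, Il3 and Il6, and 2 were tested. Csf1, which encodes M-CSF, read 97.6, 66.1 and 30 in deficient and 30, 57.1 and 30 in proficient arrays. Osm, an IL-6 family cytokine and also a STAT5 target, read 62.6, 77.4 and 52.9 against 38.5, 52.7 and 42.6, with the deficient array higher in each litter by a small margin (limma adjusted p = 0.544).

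The JAK, STAT and adaptor genes had 19 negative and 4 positive differences among 23 tested, with a median of -0.15 and 0 called. Litter medians were -0.28, -0.35 and 0.04, so litter 3 did not share the direction. Median centring raised each of these genes' log2 differences by 0.09. The negative sign of Stat2 was set by the filter, which it passed only through its proficient arrays. Closest to passing was Jak3, a kinase of receptors with the common gamma chain, at 46.4, 30 and 30 in deficient against 48.7, 85.4 and 37.5 in proficient arrays (limma adjusted p = 0.452). Plcg2, a phospholipase downstream of kinases, read 436, 392 and 406 against 507, 607 and 530, and Dok1, an adaptor that damps kinase signals, 64.1, 68.3 and 71.4 against 102, 101 and 93.8. In both of these the groups did not overlap, and neither passed (limma adjusted p = 0.530 and 0.544). In all, 5 of the 23 had every deficient array below every proficient one and 0 had every one above, where 4.89% and 2.30% of all tested probe sets did. The same counts, lower and higher, were 2 and 0 of 15 other receptors, 2 and 1 of 18 inhibitors, 1 and 1 of 15 targets and 0 and 2 of 13 transcription factors.

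Feedback inhibitors and induced targets included genes with opposite differences. Among 18 inhibitors tested 14 had negative and 4 positive differences, with a median of -0.16 and 0 called. Socs2, a STAT5-induced inhibitor, read 313, 285 and 165 in deficient and 118, 130 and 140 in proficient arrays, with a log2 difference of 0.80 (standard error 0.24, limma adjusted p = 0.157). Cish, another STAT5-induced inhibitor, read 48.8, 110 and 91.2 against 145, 201 and 128, with a log2 difference of -0.75 (standard error 0.24, limma adjusted p = 0.192). The 2 genes thus stood apart without overlap and in opposite directions, and Socs2 passed only with median centring (0.046).

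Of 15 targets tested 8 had negative and 7 positive differences, with a median of -0.05 and 0 called. The positive sign of Id1 was set by the filter, which it passed only through its deficient arrays. Ccnd1, which encodes cyclin D1, read 483, 252 and 477 in deficient and 289, 123 and 196 in proficient arrays, higher in each litter, with a log2 difference of 0.91 (standard error 0.22, limma adjusted p = 0.0595). It passed with median centring (0.0104), with a pseudocount of 0 (0.047) and with the stricter filter (0.0294). Under the other alternatives it did not pass, among them no litter term (0.9998) and no filter (0.942). Its groups overlapped, since the deficient array of litter 2 lay below the proficient array of litter 1. Egr1, an immediate early gene, read 1591, 581 and 433 against 5845, 501 and 1207, so litter 2 went the other way. Myc, a growth regulator, read 509, 451 and 531 against 722, 864 and 829, below in each litter and without overlap (limma adjusted p = 0.205).

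The list of transcription factors known to act on receptor genes, which holds PU.1, C/EBP, RUNX, GATA and ETS factors and others whose cores were not searched above, had a median log2 difference of 0.21, with 9 of 13 positive and 0 called, and a litter 2 median of -0.27. Gfi1, a repressor needed for granulocyte formation, read 270, 227 and 422 in deficient and 222, 147 and 144 in proficient arrays, without overlap (limma adjusted p = 0.223). Cebpd, a C/EBP factor of myeloid cells, read 34.7, 133 and 265 against 30, 64.6 and 92.3, higher in each litter. Gata2, a regulator of stem cells and mast cells, read 644, 529 and 761 against 499, 433 and 399, again without overlap. Neither of these passed (limma adjusted p = 0.236 and 0.389). Spi1, which encodes PU.1, read 30, 46.3 and 66.0 in deficient and 30, 62.1 and 40.7 in proficient arrays. Its log2 difference of 0.06 thus joined a litter at the floor on both sides with litters 2 and 3, which went opposite ways.

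**Figure D4:**
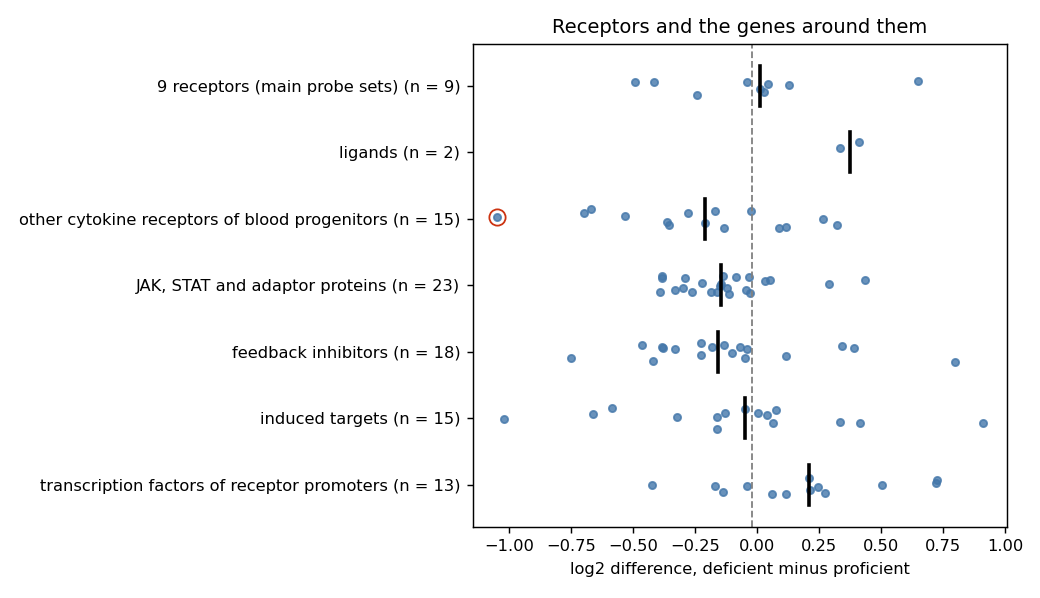
Log2 difference (deficient minus proficient, litter as a block) of the main probe set of each gene tested, for the 9 receptors and the 6 lists around them, with a black bar at each median, a dashed line at the median of all 10885 main probe sets (-0.02) and a red ring around the gene called at an adjusted p under 0.05. The ringed gene, at -1.05, is Flt3; no gene of the other rows is ringed, and the receptors spread from -0.49 (Il6st) to 0.65 (Csf2rb).

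The genes whose pattern over the 6 arrays was nearest to each receptor were found by the root mean square distance of centred log2 values, for receptors above the floor on all arrays with a range of at least 1 on the log2 scale. For Csf2rb these were F10 (distance 0.09) and Usp46 (0.13), and for Csf1r Itgb1bp1 (0.08) and Gtf3a (0.08). For Il6ra they were Crlf2 (0.07), a cytokine receptor chain itself, and Pdk3 (0.09), and for Il6st Brwd1 (0.11) and Sh3bp5 (0.15). F10, which encodes coagulation factor X, read 61.7, 45.1 and 129 in deficient and 30, 44.1 and 38.6 in proficient arrays, with the highest value in deficient litter 3, as for Csf2rb. Crlf2 read 111, 220 and 229 in deficient and 89.8, 344 and 186 in proficient arrays, lowest in litter 1 and highest in proficient litter 2, as for Il6ra. With 6 arrays and 10885 main probe sets to choose from, these near matches are given as a description only.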

How the data were processed

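Per the labels' protocols, RNA of sorted LSK cells went through 2 steps of linear amplification before labelling for the Affymetrix arrays. The authors deposited linear signal intensity values, for which their processing notes, as submitted, name MAS5. No value lies below 30, and the sources used here do not give the step that set this floor. No count of molecules underlies a signal, and with 3 arrays a group their number limits the precision.

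Signals were transformed as log2(signal + 30). Without the 64 control probe sets, 22519 probe sets with a mean signal at or above the median (32.6) were tested. A probe set whose mean in 1 group is under this cutoff passes only if the other group is higher, which sets its sign. The test was limma 3.58.1 in R 4.3.3 (lmFit, eBayes with a variance trend), with genotype and litter as terms and Benjamini-Hochberg adjustment. Litter, taken from the sample number, is in the model because the design text compares litter mates; deviations of samples with equal numbers correlated at 0.77, 0.67 and 0.46. Alternatives were no litter term, other normalizations, pseudocounts and filters, no variance trend and each litter left out. The members and lists were chosen with earlier results of these data known. Named beside the members were called genes and those of smallest p, up to 3 a list, and the 2 genes nearest in pattern. One inhibitor gene that this rule names is not reported here. Symbols came from the platform annotation of 34945 probe sets with 1 symbol; 932 had several and 9160 none. Identity between receptor proteins is not analysed here.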

Additional observations from a re-analysis of the deposited data

How the results depend on the processing

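With 3 arrays a group, differences among signals near the floor of 30 cannot be measured, and the 14 receptor probe sets tested gave 0 calls under all 12 alternatives run on the counts. The count of all probe sets called, 71 higher and 117 lower with the litter block, was 0 and 0 with no replicate block and with no filter, between 0 and 0 when each litter was left out, 193 higher with median centring, and 73 lower with quantile normalization and 65 with no variance trend. A filter on mean log2 signal, chosen after seeing the data, gave 66 and 111. In the lists around the receptors, 0 higher and 1 lower became 2 higher with median centring and 1 higher with a pseudocount of 0 and with the stricter filter. The count lower was 0 with no replicate block, quantile normalization, no filter and no variance trend, and between 0 and 0 when each litter was left out. No receptor passed under any alternative run. Csf2rb ranged from 0.32 to 0.91, Csf3r from -0.54 to -0.30 and Csf2rb2 from -0.39 to -0.03 on the log2 scale, each with 1 direction throughout, Csf2rb with adjusted p from 0.108 to 0.9998. For the other 6 receptors the direction turned when a litter was left out, where values ranged from -0.075 to 0.17 for Csf1r, -0.28 to 0.47 for Csf2ra, -0.023 to 0.038 for Il3ra, -0.093 to 0.29 for Il6ra, -0.94 to 0.024 for Il6st and -0.30 to 0.38 for Epor. It turned too for Epor with quantile normalization (0.0062) and median centring (0.0505) and for Il6ra with the mean of all probe sets (-0.014). None of these had been called, and the cause was not tested.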

Other observations

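IL-3 and GM-CSF receptors also serve mast cells, basophils and eosinophils, whose markers were read on the same arrays. Of 6 tested mast cell and basophil genes 6 had positive differences, with a median log2 difference of 0.46 and 0 called. The sign of 1 of these, Cma1, was set by the filter, which it passed only through its deficient arrays. Their 7 measured genes summed to between 1093 and 1391 in deficient and between 512 and 1290 in proficient arrays, with litter 3 lower in the deficient array. Cpa3, a mast cell protease, read 665, 548 and 500 in deficient and 212, 323 and 404 in proficient arrays, and Cma1, a chymase, 51.9, 59.7 and 54.9 against the floor on all 3 proficient arrays; both were chosen after their values were seen and did not pass (limma adjusted p = 0.128 and 0.183). The 3 eosinophil genes had a median of 0.19, and sums from 242 to 570 and from 159 to 567 in deficient and proficient arrays.

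Erythroid markers had 5 negative and 1 positive difference among 6 tested, with a median of -0.09, litter medians of 0.46, -0.50 and -0.40 and 0 called; Hba-a1 and Alas2 were at the floor on all arrays. The 7 tested B, T and NK cell markers had a median of 0.26, which is the value of Cd3d, and 0 called. Of 3 tested markers of the depleted lineages 2, Cd3e and Cd8a, had positive differences and 0 were called. The positive signs of Cd3d, Cd3e and Cd8a were set by the filter, which they passed only through their deficient arrays. Among 5 LSK and stem cell genes 1 was called lower with litter as a block, against 0.597% of all main probe sets, 0 higher, and the list's median was -0.50 with 3 negative and 2 positive. The called gene was Procr, the endothelial protein C receptor (log2 difference -1.07, limma adjusted p = 0.0275), whose adjusted p was 0.9998 with no litter term and 0.942 with no filter. Cd48, a marker of progenitors past the stem cell, read 465, 581 and 417 in deficient and 180, 341 and 325 in proficient arrays, above without overlap (log2 difference 0.76, limma adjusted p = 0.153), and Slamf1 had a difference of 0.36; these 3 genes were chosen after their values were seen.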
